A study of Homo sapiens with 5 samples.

Results

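The genes described here are ENPP2, which encodes autotaxin, and 7 genes that receive or remove the lipid it makes, lysophosphatidic acid. They were chosen by name and selected on earlier results of these same arrays, in which ENPP2 stood out on the array of cells given leukotriene C4, so their values are given as a description with no test. Every probe set (a group of short probes read as 1 signal) whose only gene symbol is ENPP2, LPAR1, LPAR2, LPAR5, LPAR6, PLPP1, PLPP2 or PLPP3 was taken. This gave 15 of the 41091 probe sets with 1 symbol, for 7 of the 8 genes. LPAR5 is the gene without one in the annotation used here. In GRCh38.p14, ENPP2 lies on chromosome 8 from 119557086 to 119673390 and LPAR1 on chromosome 9 from 110873263 to 111038998. LPAR2 (19623655 to 19628220) and PLPP2 (281043 to 291403) are both on chromosome 19. PLPP1 lies on chromosome 5 from 55424854 to 55534964, PLPP3 on chromosome 1 from 56494761 to 56579563, and LPAR6 on chromosome 13 from 48389571 to 48444669.

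The cells were MonoMac6, a human monocyte-like line in long use, and 5 arrays were run. Cells of 4 arrays had received 1 eicosanoid from a DMSO stock at 100 nM for 12 h. These were leukotriene B4 (LTB4), leukotriene C4 (LTC4), and the lipoxins A4 (LXA4) and B4 (LXB4). The fifth array was of unstimulated cells. The labels give no time for them and do not say whether DMSO was added. Each condition has 1 array, so no difference below has a replicate check and no p-value or standard error is given. The array number limits the precision, and the values describe 5 arrays of 1 cell line, in which fewer expressing cells and less RNA per cell cannot be told apart.

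Autotaxin is a secreted lysophospholipase D. It cleaves choline from lysophosphatidylcholine outside the cell and leaves lysophosphatidic acid, a growth-factor-like lipid that acts on a family of G-protein-coupled receptors. LPAR1 and LPAR2 belong to the receptor branch that also holds the sphingosine 1-phosphate receptors, while LPAR5 and LPAR6 are closer in sequence to purinergic receptors. The PLPP genes encode lipid phosphate phosphatases of the plasma membrane, which face outward and end the signal by removing the phosphate.

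ENPP2 was the member at least 2-fold apart from unstimulated cells, and it was so with LTC4. On the brighter of its 2 probe sets its signal was 395 with LTB4, 1833 with LTC4, 448 with LXA4 and 460 with LXB4, against 424 in unstimulated cells. The dimmer probe set gave 206, 827, 282 and 235 on the same 4 arrays, against 233 in unstimulated cells. The LTC4 array was thus the high one on both probe sets, and the other 4 arrays lay close together.

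**Figure D1:**
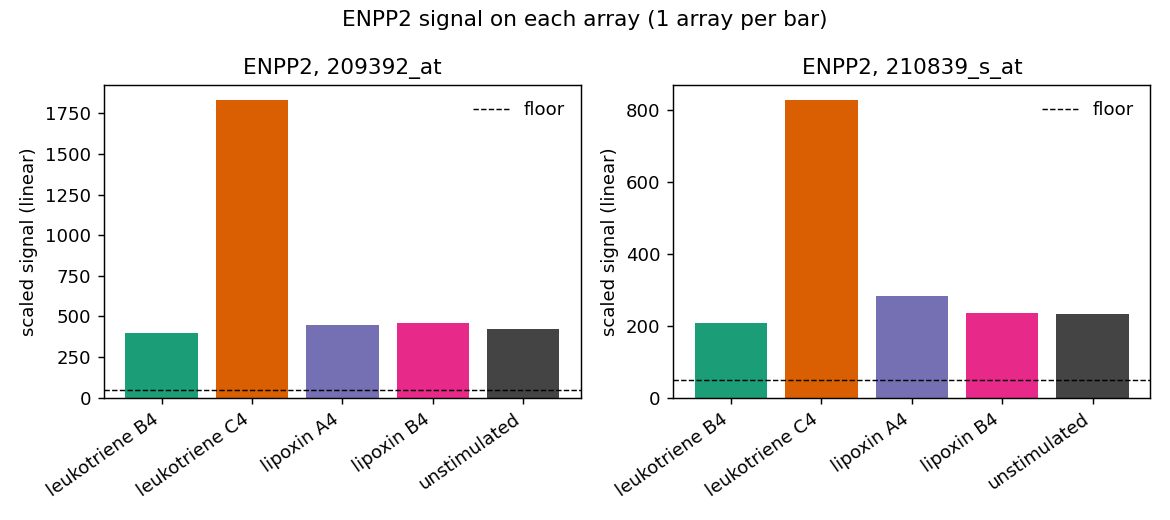
Scaled signal of the 2 ENPP2 probe sets (linear axis from 0) on the 5 arrays, 1 bar per array, with the floor of 48.7 dashed. The LTC4 bar reaches 1833 on the brighter probe set and 827 on the dimmer, and no other bar exceeds 460 and 282.

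LTC4 over unstimulated cells was 4.32-fold on the brighter probe set (log2 difference 2.11) and 3.56-fold on the dimmer (1.83). With LTB4 the log2 differences were -0.10 and -0.18, with LXA4 0.08 and 0.28, and with LXB4 0.12 and 0.02. In place of replicate error, the SD of the difference between 2 stimulated arrays was taken over the 500 probe sets nearest in mean signal, and was 0.25 and 0.34. The LTC4 differences were 8.34 and 5.45 times these values, while those of the other 3 compounds were at most 0.83 times in size. This spread is of probe sets near in signal on the 4 stimulated arrays, ENPP2 included, and not of repeated cultures. ENPP2 was chosen for standing out with LTC4, so nothing is read from these ratios.

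The 4 compounds were given at 1 dose and 1 time, so their arrays can be set side by side. LTC4 carries a glutathione group that LTB4, a dihydroxy acid, lacks. Between these compounds ENPP2 was 4.64-fold higher with LTC4 on the brighter probe set and 4.02-fold higher on the dimmer. Against all 4 other arrays the ratio lay between 3.99-fold and 4.64-fold on the first probe set and between 2.93-fold and 4.02-fold on the second. In the 6 pairs of arrays without LTC4 the largest ratio was 1.16-fold and 1.37-fold. LXA4 and LXB4, trihydroxy acids that differ in the place of a hydroxyl group, belong to these 6 pairs.

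A difference of at least 2-fold was counted among the 29424 probe sets with 1 symbol and a signal above a floor of 48.7 on at least 1 array; 11 member probe sets met this filter. Both ENPP2 probe sets and no other member were 2-fold higher with LTC4 than unstimulated, where 1.37% of all probe sets were. No member was 2-fold lower, where 1.86% were. The ENPP2 probe sets ranked at place 6 and 17 among the 29424, and at place 3 and 6 among the 22559 above the floor on both arrays. They were also 2-fold higher with LTC4 than with LTB4 (1.52% of all), LXA4 (1.53%) and LXB4 (1.62%). Because the choice of ENPP2 rests on this contrast, nothing is read from these counts. With the other compounds no member was 2-fold apart from unstimulated cells in either direction, where 2.83% of probe sets were with LTB4, 2.53% with LXA4 and 2.95% with LXB4.

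**Figure D2:**
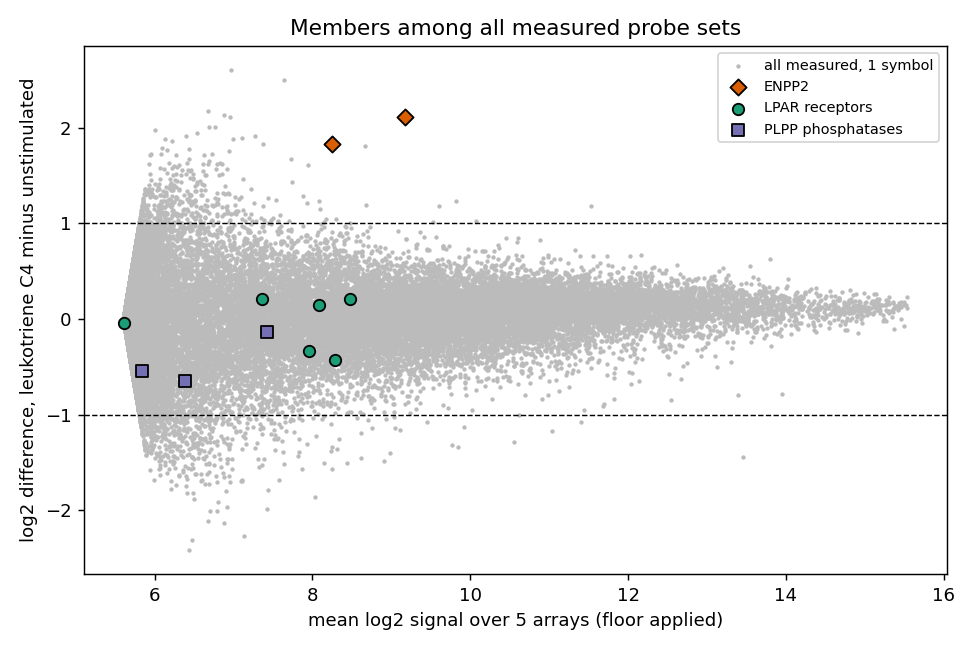
Log2 difference of LTC4 minus unstimulated (vertical axis) against mean log2 signal over the 5 arrays (horizontal axis) for the 29424 measured probe sets in grey, with the 11 measured members coloured and the 2-fold limits dashed. The ENPP2 points lie at 2.11 and 1.83, and the receptors and phosphatases between -0.65 and 0.21.

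Control probe sets for ribosomal RNA were mostly higher on the stimulated arrays and enter no comparison. The middle probe set for 18S rRNA was 16.5-fold over the unstimulated array with LTC4, and 4.90-fold, 1.96-fold and 5.67-fold with LTB4, LXA4 and LXB4. With LTC4 the other ribosomal RNA controls ranged from 1.24-fold to 14.0-fold. The brightest, the 3' probe set for 18S rRNA, was 3.41-fold with LTC4, and 2.98-fold, 1.90-fold and 2.15-fold with LTB4, LXA4 and LXB4. The ratio of the 3' to the 5' probe set, a measure of RNA integrity, was 1.13 for ACTB and 1.06 for GAPDH with LTC4, against 1.13 and 1.03 in unstimulated cells. The part of the ribosomal RNA signal in the ENPP2 difference was not tested.

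The markers of monocytic cells were present, as the label asks. LYZ, the lysozyme of phagocytes, had signals between 36107 and 49095 on its brightest probe set, and SPI1, a myeloid transcription factor, between 4629 and 7467. CD14, the lipopolysaccharide co-receptor, had 319 with LTC4, against 225 in unstimulated cells, and FCGR1A lay under the floor on all arrays. ITGAM, an integrin of myeloid cells, was 2.31-fold higher with LTC4 on its dimmer probe set (161 against 69.6) and 1.06-fold on its brighter one. CD4 was at least 3.02-fold lower with LTB4 and with LXB4 on 1 probe set. Of 15 such markers, 12 had a probe set and 11 lay above the floor on at least 1 array, and their summed signal lay between 110614 and 132820.

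ENPP2 is also made by fat, choroid plexus and oligodendrocytes, so their markers were read as well. For fat cells, PLIN1 and LEP lay under the floor on all arrays, ADIPOQ had 72.3 with LTC4 and lay under the floor on the others, and LPL, which macrophages also make, was bright. The summed signal of the 5 fat markers was 4081 with LTC4, against 3319 in unstimulated cells and 2969 to 3484 on the other 3 arrays. LPL accounts for the excess, with 1582 against 1304 and 2317 against 1831 on its probe sets, while CIDEC, a lipid droplet protein, had 101 against 131. For oligodendrocytes and choroid plexus, 6 of 7 markers had a probe set and all 6 lay above the floor on at least 1 array. TTR, the transthyretin of choroid plexus, had 60.2 with LTC4, against 78.7 in unstimulated cells. FOLR1 is a folate receptor found in choroid plexus. On 1 probe set it had 6900 with LTC4, against 4775 in unstimulated cells and 4403 to 5110 on the others. Its other probe set lay under the floor on all arrays, with at most 27.7, so the probe sets disagree on whether FOLR1 was present. The summed signal of that list was 11925 with LTC4, against 9880 in unstimulated cells and 9332 to 10020 on the others. The bright FOLR1 probe set accounts for that excess, while the median log2 difference of the 13 measured probe sets was -0.17 with LTC4. MBP, a myelin protein, was 920 with LTC4, against 1039 in unstimulated cells, on 1 bright probe set. On another it had 1479, 1616, 1572 and 1509 with LTB4, LTC4, LXA4 and LXB4, against 1325. A dim one was at least 2.39-fold lower with both lipoxins. MOG, also of myelin, was on 1 probe set at least 2.29-fold lower on all 4 stimulated arrays than on the unstimulated array they share. Markers of fibroblasts and endothelium summed to 641 with LTC4, against 856 in unstimulated cells, those of T, B and NK cells to 811 against 771, and those of erythroid cells and megakaryocytes to 578 against 488. Of these, NCAM1 was 2.13-fold higher with LTC4 on 1 probe set, and DCN at least 2.11-fold lower with LXB4 on 1 probe set. The part of these markers in the ENPP2 difference was not tested.

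**Figure D3:**
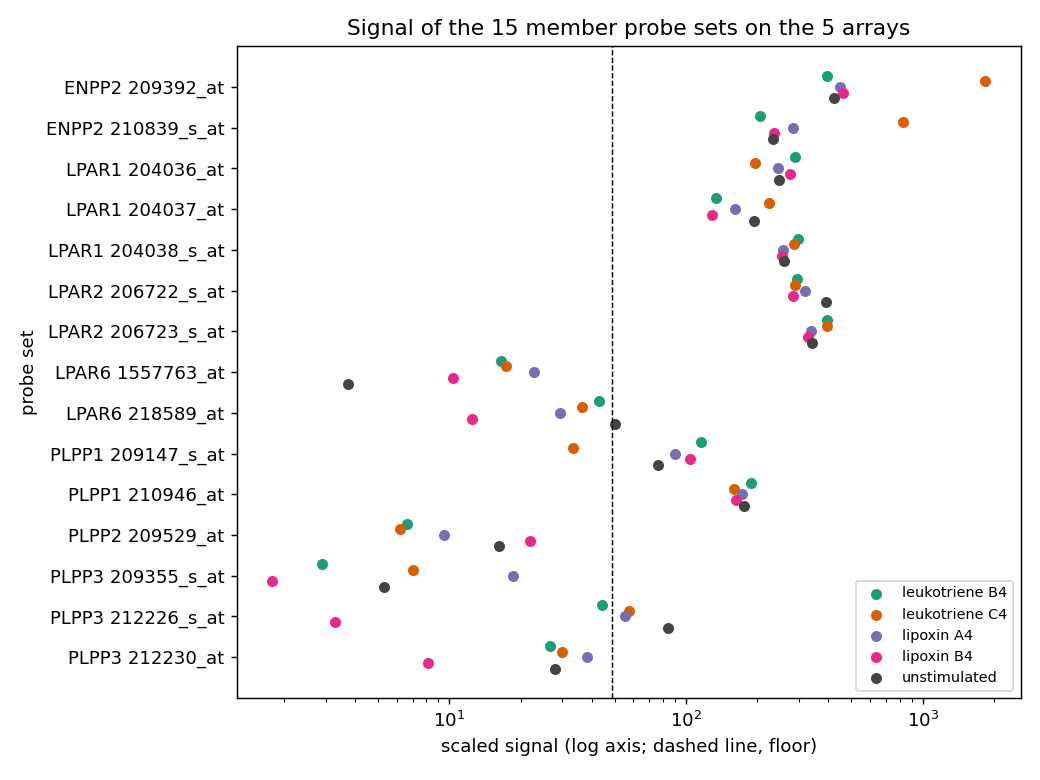
Scaled signal (log axis) of all 15 member probe sets on the 5 arrays, 1 coloured point per array, with the floor of 48.7 dashed. LPAR1, LPAR2 and ENPP2 lie above the floor on all 5 arrays, and PLPP2 and 1 of the 2 LPAR6 probe sets lie under it on all 5.

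Among receptors, LPAR1 and LPAR2 were above the floor on all 5 arrays with each of their probe sets, and their differences were small and not of 1 sign. LPAR1 couples to several classes of G protein and drives cell movement. Its brightest probe set gave 297, 287, 258 and 255 with LTB4, LTC4, LXA4 and LXB4, against 259.5 in unstimulated cells. These arrays overlap closely, with log2 differences of 0.20, 0.15, -0.01 and -0.02. The next brightest gave 289, 195, 246 and 276, against 246, so LTC4 was the lowest array (-0.33). The dimmest gave 134, 225, 161 and 129, against 195, so LTC4 was the highest (0.21) and LXB4 the lowest (-0.60). The LPAR1 probe sets therefore disagreed on the direction with LTC4, and their spread at this signal was 0.35 to 0.44.

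LPAR2, a receptor of the same branch, had 294, 290.2, 319 and 283 on its dimmer probe set with the 4 compounds in the same order, against 391 in unstimulated cells. All 4 stimulated arrays lay below the unstimulated one, by log2 differences between -0.29 and -0.47, beside a spread of 0.33 at this signal. They share that unstimulated array, so the 4 differences are not independent. Its brighter probe set did not show this. It had 394, 393, 338 and 328, against 341 in unstimulated cells, with differences of 0.21, 0.21, -0.01 and -0.05.

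LPAR6, which takes part in hair growth in humans, was at or under the floor. Its brighter probe set lay just above it on 1 array only, with 42.8, 36.3, 29.3 and 12.5 in stimulated cells, against 50.2 in unstimulated cells. Values under the floor have no order here. The other LPAR6 probe set had at most 22.7. Neither LPAR6 nor the unlisted LPAR5 can thus be given a difference.

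Of the 3 member phosphatases PLPP1 was the brightest, and its 2 probe sets differed in how steady they were. The brighter gave 188, 159, 173 and 163 with LTB4, LTC4, LXA4 and LXB4, against 175 in unstimulated cells, with differences between -0.14 and 0.10. The dimmer gave 115, 33.2, 90.1 and 104, against 76.2. LTC4 was the lowest array on both PLPP1 probe sets, under the floor on the second, where it was at least 1.57-fold lower than unstimulated cells. LTB4 was the highest array on both.

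PLPP3, which in mice is needed for blood vessel formation, was near the floor on its brightest probe set. It had 44.2, 57.7, 55.0 and 3.28 in stimulated cells, against 83.9 in unstimulated cells. All 4 stimulated arrays lay below the unstimulated one, with log2 differences of -0.54 with LTC4 and -0.61 with LXA4. With LTB4 and LXB4 it was under the floor and at least 1.72-fold lower. The 4 differences share that unstimulated array, so they are not independent. As this probe set was not above the floor on all arrays, no spread near its signal was taken. The other PLPP3 probe sets were under the floor on all 5 arrays, with at most 38.3. PLPP2, a phosphatase of the same family, had at most 21.9 and gave no difference.

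**Figure D4:**
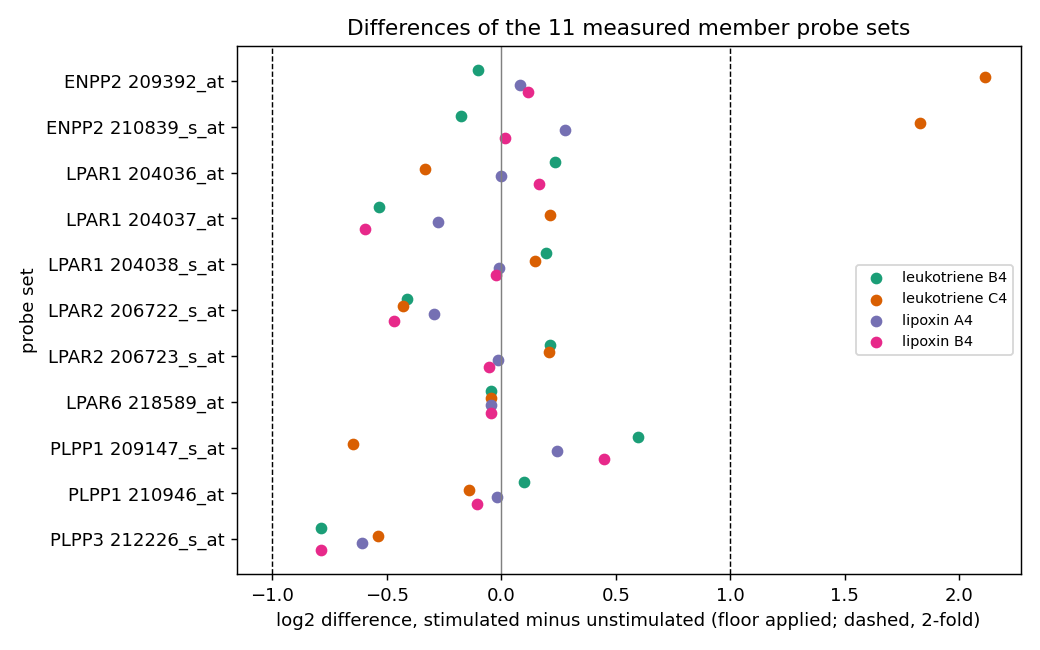
Log2 difference of each stimulated array minus the unstimulated array for the 11 measured member probe sets, with values under the floor set to it and the 2-fold limits dashed. Only the ENPP2 points for LTC4 pass a limit, and the PLPP3 points all lie between -0.54 and -0.79.

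Set directly against the other compounds, LTC4 had PLPP1 at the floor on its dimmer probe set. The log2 difference there was -1.24 against LTB4, -0.89 against LXA4 and -1.09 against LXB4, each a bound, while on the brighter probe set it was -0.24, -0.12 and -0.03. It was the 1 member at least 2-fold lower with LTC4 than with LTB4, where 1.27% of all probe sets were, and than with LXB4, where 0.788% were. No member was so against LXA4, where 0.975% were. LPAR1 with LTC4 was lower than with LTB4 on 1 probe set (-0.57), higher on another (0.75) and close on the brightest (-0.05). For LPAR2 the differences between these compounds were -0.02 and -0.00. Between LXA4 and LXB4 the largest difference among receptors was 0.32, on the dimmest LPAR1 probe set, which is inside its spread of 0.44. With 1 array each, no interval can be given for these differences, so neither likeness nor unlikeness of the compounds is shown.

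Over the 11 measured member probe sets the median log2 difference was -0.04 with LTB4, -0.04 with LTC4, -0.01 with LXA4 and -0.04 with LXB4. Over all 29424 the medians were 0.00, 0.02, 0.00 and 0.00. The value of -0.04 is that of LPAR6, which is set by the floor. Over the other 10 the medians were -0.00, 0.00, -0.01 and -0.04, with 5 above 0 and 5 below with LTC4, and 3 above and 7 below with LXA4.

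The wider pathway was read through 12 lists of genes that make, receive or remove lysophospholipids, whose measured members outside the 8 genes above came to 109 probe sets of 61 genes. Of these, 4 were at least 2-fold higher and 1 lower with LTC4, a share of 4.59%, against 3.23% of all probe sets. With LTB4 there was 1 each way (1.83%, against 2.83% of all). With LXA4 there were 1 higher and 3 lower (3.67%, against 2.53%), and with LXB4 2 each way (3.67%, against 2.95%). These shares rest on 2 to 5 probe sets each. Their medians were 0.00 with LTB4 and LTC4, 0.02 with LXA4 and 0.00 with LXB4.

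The other enzymes listed as forming lysophosphatidic acid were not measured above the floor. PLA1A, LIPH and LIPI, phospholipases of the A1 type, lay under the floor on all arrays. Of autotaxin's relatives, ENPP1, ENPP4 and ENPP5 were under it too. ENPP3 lay under the floor with LTC4, against 72.4 in unstimulated cells. ENPP6, a choline phosphodiesterase, had 69.3 with LTC4 and lay under the floor on the other 4 arrays. Neither was 2-fold apart.

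The remaining receptors of lysophosphatidic acid were above the floor on all arrays. LPAR3 had 330.3 with LTC4, against 412 in unstimulated cells, on its brighter probe set, but 212 against 164 on its dimmer one. LPAR4 had 84.7, 128, 138 and 98.4 in stimulated cells, against 166 in unstimulated cells, and its largest difference was -0.97, with LTB4. Listed beside receptors for other lysophospholipids was P2RY8, a receptor best known from B cells and the brightest in its list. It had 5088, 5521, 4907 and 4966 in stimulated cells, against 4706 in unstimulated cells. S1PR3, a sphingosine 1-phosphate receptor, had 1014 against 1002. PTAFR, the receptor of platelet-activating factor, was 2.06-fold lower with LXA4 on its dimmest probe set (96.0 against 198), while its brighter probe sets gave 0.24 and 0.05.

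Among the other phosphatases, PLPP4 was at least 2.14-fold higher with LTC4, at 103.9, against a signal under the floor in unstimulated cells, and it had 1 probe set. PLPP5 had 403, 528, 495 and 446 in stimulated cells, against 379, on its brightest probe set (log2 0.48 with LTC4). Its other 3 gave between -0.11 and 0.17 with LTC4. The related membrane protein PLPPR3, which is most known from neurons, had 1458, 1436, 1828 and 1797 in stimulated cells, against 2292 in unstimulated cells. It was below unstimulated on all 4 arrays, by 0.33 to 0.67 on the log2 scale, and these differences share the 1 unstimulated array.

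Genes that supply or recycle the substrate gave single probe sets that passed 2-fold. PLB1, a phospholipase B, had 129, 315, 67.3 and 113 in stimulated cells, against 71.7 in unstimulated cells, and so was 4.39-fold higher with LTC4. Its other probe set lay under the floor. LPCAT3, which attaches fatty acids to lysophosphatidylcholine, was at least 2.86-fold higher with LTC4 on its dimmer probe set, and the other compounds were higher there too (log2 0.93 with LTB4, 0.75 with LXA4 and 1.23 with LXB4), where the unstimulated value was under the floor. On the brighter one LPCAT3 had 536, 518, 787 and 565 in stimulated cells, against 805 (-0.64 with LTC4). PLA2G4C, a cytosolic phospholipase A2, was 2.24-fold lower with LXA4. LYPLA1, a lysophospholipase, had 7871, 8157, 8299 and 9075 in stimulated cells, against 7305.

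Among enzymes that make or use lysophosphatidic acid inside the cell was AGPAT5, an acyltransferase that turns it into phosphatidic acid. AGPAT5 had 4775, 4431, 4553 and 4792 with LTB4, LTC4, LXA4 and LXB4, against 4007 in unstimulated cells, so LTC4 was the lowest of the stimulated arrays. GPAT4, which makes lysophosphatidic acid from glycerol phosphate, had 1311, 1368, 1441 and 1205 in stimulated cells, against 1728, on its brightest probe set. A dimmer one lay under the floor with LTC4 (-0.95). GPAT2 and GPAT3 lay under the floor on all arrays. SGPL1, which breaks down sphingosine 1-phosphate, had 786, 765, 932 and 879 in stimulated cells, against 969. SPNS2, the transporter of sphingosine 1-phosphate out of the cell, was 3.10-fold lower with LXB4 (49.9 against 154).

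Likeness to ENPP2 was measured as the gap, in log2, between the LTC4 array and the highest of the other 4 arrays. It was ranked over the 8483 genes above the floor on all 5 arrays whose other 4 values spanned at most 0.5. ENPP2 with LTC4 was 3.99-fold over the next highest array on its brighter probe set, the widest gap of all 29424 probe sets, and 2.93-fold on its dimmer one, at place 6. A gap of at least 2-fold was found in 67 probe sets (0.228%), both ENPP2 ones among them. Only 3 of the 8483 genes had one, ENPP2, CCL2 and TRPV5. ENPP2 was chosen for standing out with LTC4, so nothing is read from its own places or its part in these counts.

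The 8 genes next in order were CCL2, TRPV5, LTBP1, HESX1, MCOLN2, ZFP36L1, ADAMTS1 and IGFBP3. CCL2, the monocyte chemoattractant, had 1807 with LTC4 and between 727 and 777 on the other 4 arrays, a gap of 1.22. ADAMTS1, a secreted metalloprotease, had 2432 against 1335 to 1463 (gap 0.73; its other probe set gave 0.46). MCOLN2, an endolysosomal cation channel, had 679 against 331 to 388 (gap 0.81, other probe set 0.49). ZFP36L1, which promotes decay of messenger RNAs, had 412 against 177 to 243 (gap 0.76), but its other 2 probe sets gave -0.91 and 0.28. IGFBP3, a carrier of insulin-like growth factors, had 691 against 319 to 418 (gap 0.73, other probe set 0.24). TRPV5, LTBP1 and HESX1 were dim, with at most 156, and the other TRPV5 probe set had LTC4 below the highest array (-0.26). For CCL2, LTBP1 and HESX1 no other probe set was measured.

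**Figure D5:**
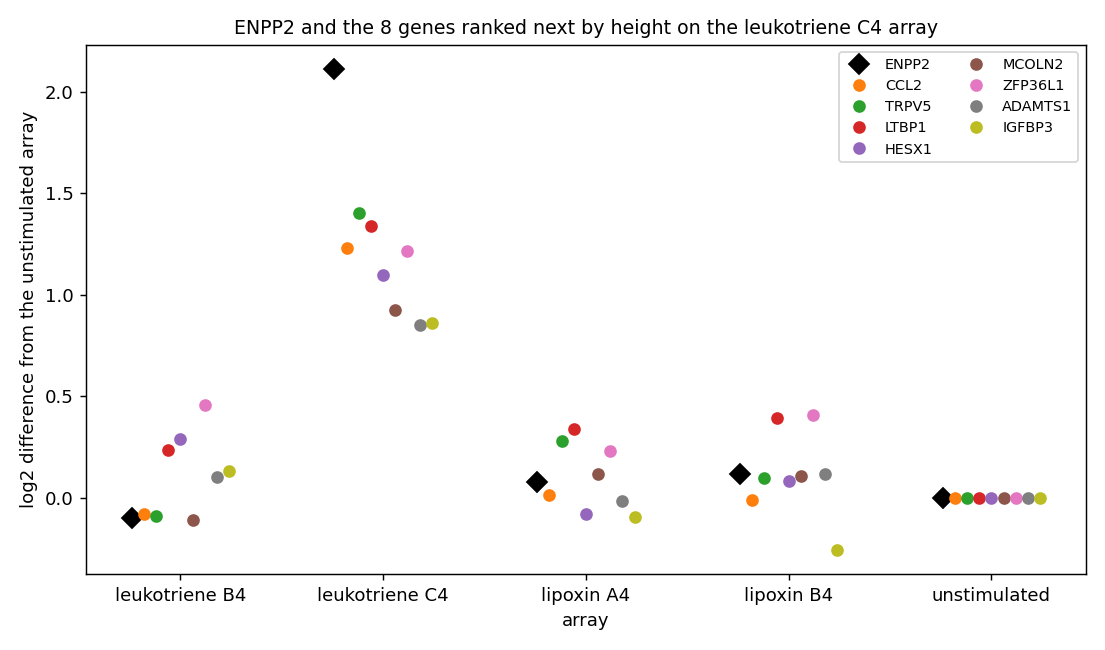
Log2 difference of each array from the unstimulated array for ENPP2 (black diamonds) and the 8 genes with the next widest gaps, with the unstimulated array at 0 on the right. ENPP2 stands at 2.11 with LTC4, CCL2 at 1.23 and ADAMTS1 at 0.85, and on the other arrays all 9 lie much closer to 0. The choice of genes by a span of at most 0.5 over the arrays without LTC4 fixes that closeness.

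The RefSeq promoter table (GRCh38.p14) holds windows of 300 bases, from 250 before to 50 after a gene start, for 5 of these 8 genes and for 6 of the 8 members other than ENPP2 and PLPP1. The cAMP response element TGACGTCA, read on both strands, lay in 1 window each of LTBP1 and ZFP36L1, out of 9 windows of the 5 genes, and in none of the 11 windows of the members. It lies in 1.84% of all 34943 windows. The AP-1 element TGANTCA lay in none of the 9 windows and in 1 member window, that of LPAR2, against 7.72% of all. A match is a description of the letters, and the arrays hold no reading of a promoter.

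The 2 windows that hold the full cAMP response element are shown because they belong to genes among the 8 ranked next to ENPP2. They were picked after the motif search. LTC4 was the highest array on the ranked probe set of each gene, but LTBP1 was dim. Another ZFP36L1 probe set had a gap of -0.91. The element is in capitals, 94 bases before the start of LTBP1 (chr2:32946703-32947002, plus strand) and 52 bases before that of ZFP36L1 (chr14:68793367-68793666, minus strand).
LTBP1: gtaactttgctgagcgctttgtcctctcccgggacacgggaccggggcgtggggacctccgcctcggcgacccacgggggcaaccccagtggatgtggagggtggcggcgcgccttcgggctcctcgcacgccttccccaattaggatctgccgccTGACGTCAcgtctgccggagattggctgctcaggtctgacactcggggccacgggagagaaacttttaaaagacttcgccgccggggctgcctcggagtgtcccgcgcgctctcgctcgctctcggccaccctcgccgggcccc
ZFP36L1: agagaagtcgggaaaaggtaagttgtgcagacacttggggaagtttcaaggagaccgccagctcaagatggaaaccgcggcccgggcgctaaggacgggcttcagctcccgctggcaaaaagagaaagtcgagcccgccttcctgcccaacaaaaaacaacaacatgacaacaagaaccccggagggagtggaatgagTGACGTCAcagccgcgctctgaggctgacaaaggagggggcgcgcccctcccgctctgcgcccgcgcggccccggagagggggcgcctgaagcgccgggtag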

How the data were processed

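Total RNA of MonoMac6 cells was hybridised to 1 GeneChip array for each of 5 conditions, taken from the sample titles. The deposited values are linear signal intensities of 54675 probe sets; the authors used GCOS 1.4, per the submitters' processing notes, and the labels do not name the signal algorithm. After 62 control probe sets were set aside, 1 factor per array (0.978 to 1.03) brought the medians of the brighter 50% of probe sets together. Values under the 50th percentile of mean log2 signal (48.7) were set to that floor, and a difference against a value under it is a bound, written as at least N-fold. A probe set was measured if above the floor on at least 1 array. The platform annotation gave 1 symbol to 41091 probe sets, of which 41037 matched the gene table (GRCh38.p14). Counting was tested on simulated arrays with less noise than these, and with planted changes larger than 2-fold in probe sets well above the floor. That test checks the counting only and does not show how often noise passes 2-fold here.

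The members, lists and rules were chosen with earlier results of these data known. Named genes were the 8 members, the 8 genes most like ENPP2, and from each pathway list the probe sets 2-fold apart and the brightest one (1 list, counted in the totals, is not reported here); marker genes, LPAR3, LPAR4, PLPP5 and other genes given for context were named after their values were seen. The alternatives were quantile normalization, the values as deposited, floors at the 30th and 70th percentile, no filter and, added after seeing the data, the other stimulated arrays as reference. Python 3.11.15, numpy 2.4.6 and pandas 2.3.3 were used.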

Additional observations from a re-analysis of the deposited data

Results flagged for a closer look

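The control probe set for the middle of 18S rRNA, which is outside the comparisons, was above its level in unstimulated cells on all 4 stimulated arrays, by 4.90-fold with leukotriene B4, 16.5-fold with leukotriene C4, 1.96-fold with lipoxin A4 and 5.67-fold with lipoxin B4. Its rise is widest on the array on which ENPP2 was high, and the part of this rise in the ENPP2 difference was not tested. The brighter 3' probe set for the same RNA was 3.41-fold with leukotriene C4 and 2.98-fold with leukotriene B4. With 1 array per condition, no group was large enough to search for a sample that stands apart.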

How the results depend on the processing

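The ENPP2 difference with LTC4 kept its sign and size under the alternatives run, at 2.04 to 2.11 on the brighter probe set and 1.76 to 1.84 on the dimmer. Against the mean of the other stimulated arrays it was 2.08 and 1.79. The brighter probe set lay above both other floors on all arrays, and the dimmer above the lower one. Those floors could thus not move these values, and the values as deposited differ only by 1 factor per array. ENPP2 was chosen for this contrast, so nothing is read from this steadiness. The number of probe sets past 2-fold depended on the floor. With the floor at the 30th percentile (signal 17.4), 2105 were higher and 2964 lower with LTB4, 2598 and 2968 with LTC4, 2032 and 3046 with LXA4, and 1496 and 3429 with LXB4. With the floor at the 70th percentile (signal 243) these were 7 and 37, 10 and 25, 6 and 10, and 13 and 41. Against these stand 308 and 525, 402 and 548, 236 and 508, and 227 and 641 at the 50th percentile. Quantile normalization gave 380 and 425 with LXB4, and with LTC4 moved the share higher among those counted to 49.8%, against 42.3%; as deposited it was 32.9%.

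With the lower floor, 1 member was 2-fold lower with LTC4, PLPP1 on its dimmer probe set (-1.20), and 2 with LXB4, LPAR6 on its brighter probe set (-1.53) and PLPP3 on its brightest (-2.27). With the higher floor only 6 of the 15 member probe sets were measured. Of 168 values of single member differences over 4 alternatives, 13 moved beyond the spread, all under another floor, of which 9 became 0. A sign turned in 5, all under quantile normalization or as deposited, where the size was at most 0.0247 before and 0.0240 after. No paired analysis was possible because each condition has 1 array. The signal of dim members is close to the floor, so differences there could not be measured.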
